A study of Mus musculus with 15 samples.

Results

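The perigonadal fat of mice returned to chow after a high-fat diet was compared with that of mice that had eaten chow throughout to find which transcripts differed between them. The weight loss and lean libraries were chosen by their labels, which gave 9 of the 15 libraries of the series: 5 lean and 4 weight loss. All were made from poly(A) RNA of whole perigonadal fat pads, the depot beside the gonads, of C57BL/6 mice aged 14 weeks. The diets began at 8 weeks of age. Lean mice ate chow (RD). Weight loss mice (SWAP) ate a 60% high-fat diet (HFD) for 5 weeks and then chow for 1 week. A group of 5 obese libraries, from mice on the 60% high-fat diet that were not switched back, shared the estimate of the spread and is given beside the main results. No group carried an engineered allele or a drug per the labels, and the labels do not give the sex of the mice. Another weight loss library, replicate 5, had a total of only 230 counts and entered no comparison.

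White fat stores triglyceride in adipocytes and holds preadipocytes, fibroblasts, blood vessels and immune cells between them. High-fat feeding enlarges the adipocytes, draws in macrophages and lays down extracellular matrix, and a switch back to chow releases stored fat. Macrophages that take up lipid from dying or emptying adipocytes carry a program of lysosomal and lipid-handling genes, known from the receptor Trem2 and the glycoprotein Gpnmb.

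Library totals of the 9 libraries lay between 13924770 and 22233821 counts. After removal of weakly counted genes, 15208 were tested. Levels are CPM, the count of a gene relative to its library's total after TMM scaling, and are not corrected for transcript length, so they compare libraries and not genes. Differences are log2 fold changes of weight loss minus lean with their standard errors from edgeR's quasi-likelihood test, with p-values adjusted over all genes by the Benjamini-Hochberg method. A gene is said to have risen or fallen only at an adjusted p under 0.05. RNA of neighbouring tissue was uneven among the lean libraries. The summed level of the 23 epididymis markers tested was 4179 CPM in lean replicate 1 and 767 CPM in lean replicate 4. It was at most 27.7 CPM in the other lean libraries, and 4.29 to 103 CPM after weight loss. Smooth muscle markers summed to 3959 and 7175 CPM in lean replicates 1 and 4 and to 1041 to 2619 CPM after weight loss. The adipocyte hormone gene Adipoq was at 1559 CPM or more in each of the 9 libraries, so the defining marker of the labelled tissue was present in all of them.

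Weight loss fat differed from lean fat in 5 genes, all higher after weight loss. They were 0.0329% of the genes tested. These were Thbs2 and Srpx2, which encode secreted matrix proteins, Sfrp5, a secreted inhibitor of Wnt signalling made by adipocytes, Fbxo21, a substrate-binding subunit of a ubiquitin ligase, and Amy1, a starch-digesting amylase. No gene fell (0 genes, 0.00%) in the main edgeR fit, although 591 were lower at an unadjusted p under 0.05. DESeq2's Wald test called 203 genes higher and 58 lower, and limma-voom called 1 higher and 0 lower. Of the 23 epididymis markers tested, 14 were among those 591 genes and 10 among the 58 that DESeq2 called lower. These markers summed to 4179 CPM in lean replicate 1. Both counts of lower genes therefore include markers of neighbouring tissue and are not counts of falls in fat alone. In the main edgeR model 1477 genes differed between obese and lean fat (9.71%) and 246 between weight loss and obese fat (1.62%). These comparisons share libraries with the one described here, so their values are set side by side and no overlap is drawn from them.

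The number of 5 rested on single libraries. Omitting weight loss replicate 4 raised it to 130 (115 higher and 15 lower), and omitting replicate 2 of that group raised it to 11. It dropped to 1 when weight loss replicate 1 was omitted and to 0 when replicate 3 was. Among lean libraries, omitting replicate 3 gave 16 calls, replicate 2 or replicate 5 gave 2 each, and replicate 4 gave 0. Without lean replicate 5, 1 of the 2 calls was higher and 1 lower. Omitting obese replicate 3 gave 3 calls, as did obese replicate 5. No gene passed in a fit of lean and weight loss libraries alone. The same held for a fit that omitted the 4 libraries richest in epididymis markers (lean replicate 1 and obese replicates 2, 4 and 5). When the epididymis level, as the mean log2 CPM of the markers, was a covariate, 2 genes passed. Fbxo21 passed in 23 of 28 alternative settings, Thbs2 and Sfrp5 in 17, Srpx2 in 15 and Amy1 in 11, and in none of the 28 was any of the 5 lower after weight loss. Values without weight loss replicate 4 are given below because an earlier account of these data named it as the library whose omission gives most calls. That fit was thus picked by its outcome, and its adjusted p-values and calls are a description and not a test.

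The starts of these 5 genes are shown because these genes passed the threshold in the main fit. Each line gives the 150 bases before the gene's start in the RefSeq promoter table of GRCm38.p6, the assembly also called mm10, written 5′ to 3′ along the gene. Capitals mark matches, on either strand, to 5 short motifs: the TATA box (TATAAA), the CCAAT box (CCAAT), the GC box (GGGCGG), the AP-1 site (TGANTCA) and the E-box (CACGTG).
Fbxo21: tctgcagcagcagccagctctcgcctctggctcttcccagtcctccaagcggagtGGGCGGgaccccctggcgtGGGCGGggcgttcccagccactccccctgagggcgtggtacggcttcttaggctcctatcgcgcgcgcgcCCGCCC
Thbs2: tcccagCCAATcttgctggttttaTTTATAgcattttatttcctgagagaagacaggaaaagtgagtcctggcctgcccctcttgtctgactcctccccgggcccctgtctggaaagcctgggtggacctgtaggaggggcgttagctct
Sfrp5: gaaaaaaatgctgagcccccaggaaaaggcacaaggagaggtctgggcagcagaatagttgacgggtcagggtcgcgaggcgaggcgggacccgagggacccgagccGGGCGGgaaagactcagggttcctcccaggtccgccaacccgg
Srpx2: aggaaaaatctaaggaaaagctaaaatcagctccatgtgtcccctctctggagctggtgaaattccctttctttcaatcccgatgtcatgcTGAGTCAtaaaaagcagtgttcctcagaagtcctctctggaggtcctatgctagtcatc
Amy1: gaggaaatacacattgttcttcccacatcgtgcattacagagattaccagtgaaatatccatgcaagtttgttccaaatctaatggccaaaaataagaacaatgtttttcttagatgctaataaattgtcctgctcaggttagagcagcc

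The windows are chr5:117976620-117976769 on the plus strand for Fbxo21, chr17:14694263-14694412 on the minus strand for Thbs2 and chr19:42202253-42202402 on the minus strand for Sfrp5. They are chrX:133908275-133908424 on the plus strand for Srpx2 and chr3:113577751-113577900 on the minus strand for Amy1, whose table entry has 2 starts, of which the one farther upstream is shown. The gene span given below for Srpx2 begins at 133908416, so the last bases of its window lie inside that span. Fbxo21 held 3 GC boxes, Thbs2 a TATA box and a CCAAT box, Sfrp5 1 GC box and Srpx2 1 AP-1 match, and no searched motif lay in the Amy1 window. The motifs do not overlap one another in these windows. Among 32851 promoters of the table, windows of this length held the GC box in 28.6%, the CCAAT box in 24.5%, the TATA box in 7.57%, the E-box in 4.3% and the AP-1 letters in 4.24%. No motif was common to the 5 windows.

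Thbs2 encodes thrombospondin 2, a secreted glycoprotein that binds collagen and restrains the growth of vessels (Entrez ID 21826, chromosome 17, 14665500 to 14694262 on mm10). It stood at 18.6, 14.3, 12.4, 9.72 and 17.9 CPM in lean replicates 1 to 5 and at 266, 109, 219 and 34.8 CPM in weight loss replicates 1 to 4. Every weight loss library lay above every lean library, and the 4 weight loss libraries were far apart, with replicate 4 nearest to lean. Thbs2 rose by 3.43 ± 0.47 on the log2 scale, 10.8-fold (adjusted p = 0.0189). The obese mean, 43.9 CPM, lay between those of the other groups, and weight loss replicate 4 was inside the obese range of 20.0 to 61.5 CPM. Obese minus lean was 1.59 ± 0.43 (adjusted p = 0.0309) and weight loss minus obese 1.84 ± 0.44 (adjusted p = 0.0509).

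Sfrp5 (Entrez ID 54612, chromosome 19, 42197971 to 42202252) was at 36.0, 13.6, 21.5, 21.3 and 24.4 CPM in the lean libraries and at 475, 221, 351 and 39.7 CPM after weight loss. The groups did not overlap, but weight loss replicate 4 exceeded lean replicate 1 by only a few CPM. Sfrp5 rose 11.6-fold, a log2 change of 3.54 ± 0.50 (adjusted p = 0.0189). Obese fat held 318 to 678 CPM, and weight loss minus obese was -0.82 ± 0.48 (adjusted p = 0.478). Sfrp5 was thus higher than in lean fat in obese libraries (log2 4.36) and in weight loss libraries.

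Srpx2, a secreted sushi-repeat protein (Entrez ID 68792, chromosome X, 133908416 to 133932448), had 19.5, 19.5, 18.4, 23.7 and 18.4 CPM in lean fat against 52.8, 44.3, 49.1 and 27.2 CPM after weight loss. Again no library of either group crossed into the other, and replicate 4 was the lowest of the weight loss libraries. The rise was 2.18-fold, log2 1.12 ± 0.16 (adjusted p = 0.0189). Obese libraries were higher still, at 62.1 to 76.0 CPM (obese minus lean 1.75 ± 0.16), and weight loss minus obese was -0.63 ± 0.16 (adjusted p = 0.0697).

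Fbxo21 (Entrez ID 231670, chromosome 5, 117976770 to 118010198) had the smallest adjusted p, 0.0105. Its level was 137, 139.5, 133, 132 and 133 CPM in lean fat and 289.5, 237, 244 and 209 CPM after weight loss. The lean libraries were nearly alike, and the lowest weight loss library stood well above them. The rise was 1.81-fold, log2 0.86 ± 0.10. Obese fat, at 144 to 184 CPM, differed from lean by 0.23 ± 0.10 (adjusted p = 0.163), and Fbxo21 was higher after weight loss than in obese fat by 0.63 ± 0.10 (adjusted p = 0.00604). Fbxo21 was the only gene of the 5 that passed against obese fat.

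Amy1 (Entrez ID 11722, chromosome 3, 113555952 to 113577750) stood at 163, 149.7, 174, 170.4 and 159 CPM in lean libraries and at 238, 258, 291 and 228 CPM in weight loss libraries. The weight loss libraries were again all above the lean ones, and here replicate 4 was close to replicate 1. The rise was 1.55-fold, log2 0.64 ± 0.09 (adjusted p = 0.0217). Obese fat lay between at 200.5 to 227 CPM. Amylase genes are similar in sequence, and how reads were shared among them is not stated in the labels. The Amy1 level may therefore depend on how the authors' counting split such reads, which was not tested.

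The first gene outside the threshold was H2bc6, a histone H2B gene, with 4.02 to 6.96 CPM in lean fat and 13.9, 12.4, 12.6 and 10.6 CPM after weight loss (log2 difference 1.14 ± 0.19, adjusted p = 0.0557). Obese libraries were at 11.8 to 16.8 CPM. Gpnmb, Mmp12, S100a4 and Fgf13 had the same adjusted p of 0.0557.

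**Figure D1:**
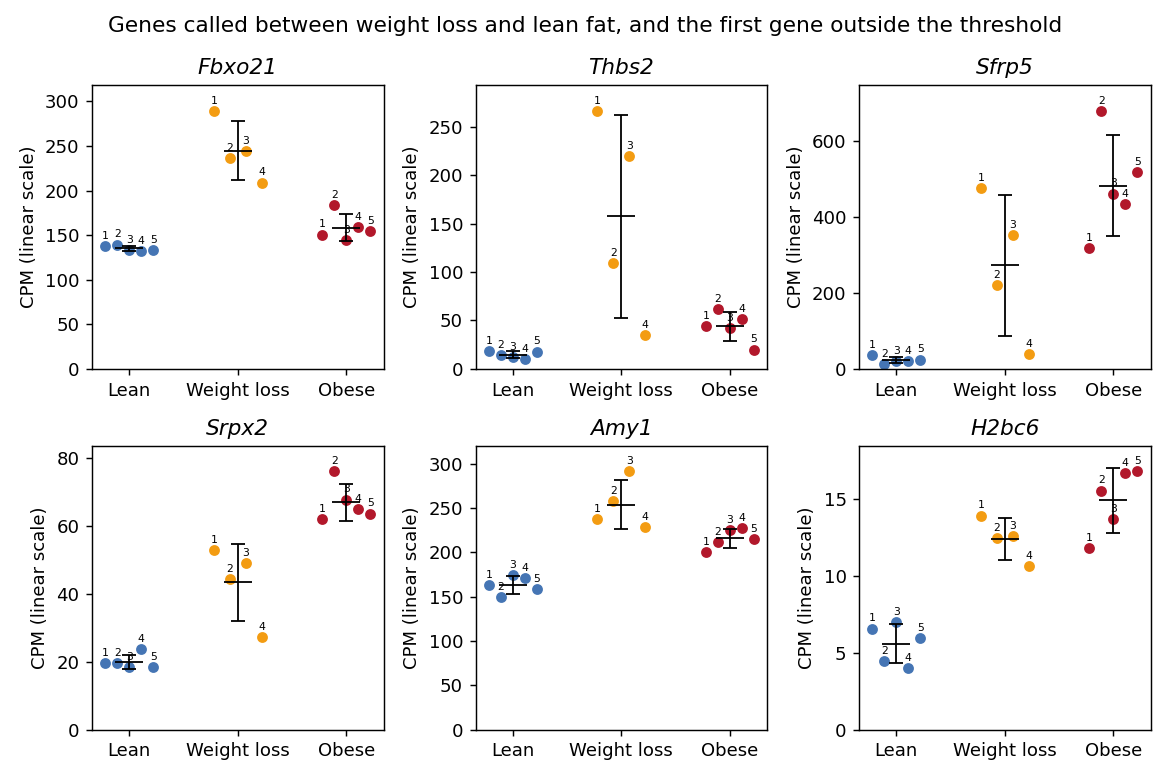
CPM (linear axis from 0) of the 5 genes that passed and of H2bc6, the first gene outside the threshold, in each library of the lean (n = 5), weight loss (n = 4) and obese (n = 5) groups. Points are libraries numbered by replicate, and bars are the mean ± SD. Weight loss replicate 4 is the lowest weight loss library for each gene, for example 39.7 CPM against 221 to 475 CPM for Sfrp5.

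**Figure D2:**
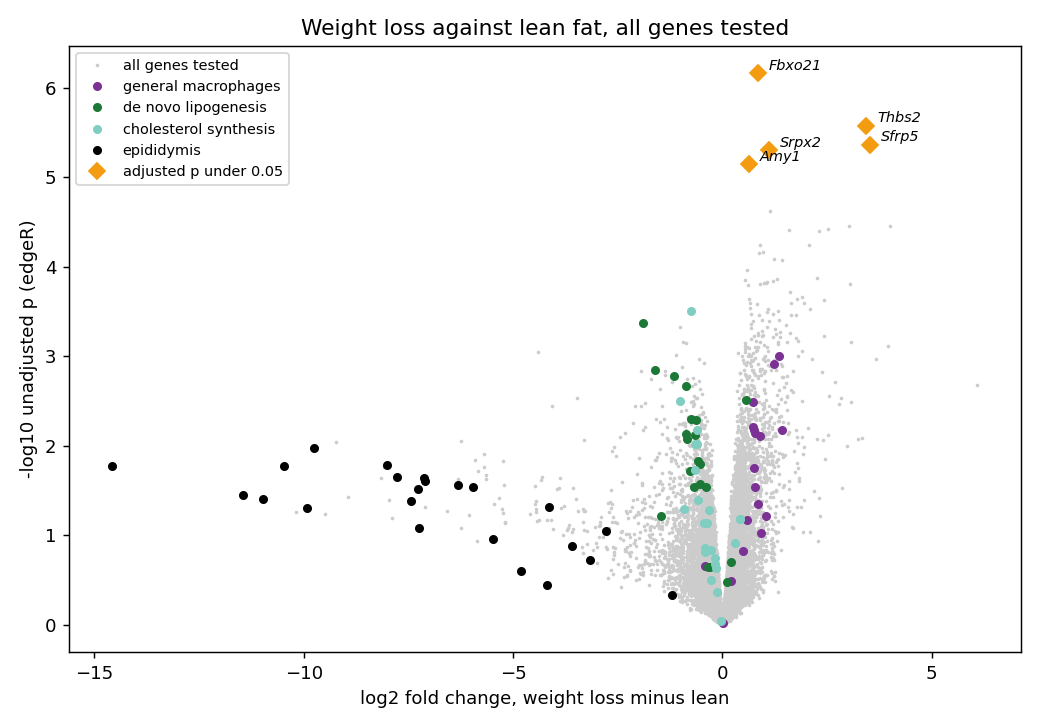
Log2 fold change of weight loss minus lean (x axis) against the negative log10 of the unadjusted p (y axis) for all 15208 genes tested, with the 5 genes at an adjusted p under 0.05 as diamonds and 4 gene lists in colour. Epididymis markers lie far to the left, and most macrophage markers lie to the right and most lipogenesis and cholesterol synthesis genes to the left of 0.

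Below the level of single calls, gene lists of pathways and cell types were described by how many of their members differed at an unadjusted p under 0.05, beside the same share of all genes: 1148 of 15208 (7.55%) were higher after weight loss and 591 (3.89%) lower. For 348 genes (2.29%) no lean library crossed into the range of the weight loss libraries, 241 of them higher (1.58%) and 107 lower (0.704%) after weight loss. The median log2 difference of all genes was 0.0033. Members of a list are not independent of one another, and the lists were chosen with earlier results of these data known.

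Matrix glycoproteins held 2 of the called genes, and Sfrp5 was the 1 that rose of 15 Wnt inhibitors and of 19 adipokines and genes of fat expansion. Of the 34 matrix glycoproteins and proteoglycans tested, 2 rose (Thbs2 and Srpx2), 16 were higher and 1 lower at an unadjusted p under 0.05, and the median difference was 0.54, against 0.73 for obese minus lean. DESeq2 called 8 of them higher and 1 lower, limma-voom 0, and limma-voom with sample weights 1 higher. Mfap5, a protein of elastic microfibrils, was at 70.9, 65.0, 82.9, 48.4 and 35.9 CPM in lean fat and at 174, 129.9, 160.3 and 110.2 CPM after weight loss, with no overlap (log2 1.24 ± 0.23, adjusted p = 0.0761). Thbs1, thrombospondin 1, an activator of the growth factor TGF-beta, was at 15.7 to 30.1 CPM in lean fat and at 273, 87.3, 341 and 18.9 CPM after weight loss (log2 difference 3.05 ± 0.61, adjusted p = 0.0864). Its weight loss replicate 4 lay inside the lean range while the other libraries lay above it. Without that library 8 of the 34 passed, Thbs1 (adjusted p = 0.00366), the elastic fibre protein Fbln5 (0.00875) and Mfap5 (0.0219) among them.

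Among the enzymes that build and cut matrix, 14 of 34 tested were higher and 1 lower at an unadjusted p under 0.05 (0 called by edgeR and by limma-voom, 5 called higher by DESeq2), with a median of 0.44 against 0.49 for obese minus lean. Mmp12, the macrophage elastase, was at 3.83, 1.84, 2.89, 1.27 and 3.83 CPM in lean libraries and at 57.4, 18.1, 96.5 and 4.33 CPM in weight loss libraries. The groups did not overlap, with replicate 4 just above the lean range. Its difference of 4.00 ± 0.69 had an adjusted p of 0.0557, and of 0.00218 without weight loss replicate 4. Mmp3, stromelysin, had 0.851 to 1.85 CPM against 8.69, 4.02, 6.6 and 2.24 CPM (log2 1.94 ± 0.41, adjusted p = 0.106). Mmp9, a gelatinase, was the member that was lower (log2 -0.67 ± 0.30, adjusted p = 0.414).

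Collagen chains, the fibres themselves, stood nearer to lean. Of 21 tested, 4 were higher and 2 lower at an unadjusted p under 0.05, none passed in edgeR or limma-voom and 1 passed in DESeq2, and the median was 0.27 against 0.85 for obese minus lean. Col6a2, a chain of the type VI collagen that surrounds adipocytes, was at 269.8, 235, 208, 216 and 177 CPM in lean fat and at 389.7, 283, 235 and 212 CPM after weight loss. These groups overlapped (log2 0.34 ± 0.17, adjusted p = 0.468), whereas the obese libraries at 534 to 719 CPM were above all of them. Weight loss minus obese was -1.12 ± 0.17 (adjusted p = 0.00384). The chains Col5a3 and Col15a1 were below lean in mean level: Col5a3 had 452 ± 69.4 CPM in lean (SD, n = 5), 299 ± 102 CPM after weight loss (SD, n = 4) and 876 ± 149 CPM in obese fat (SD, n = 5), with an adjusted p of 0.304 against lean. Col14a1, a collagen that associates with fibrils, went with the glycoproteins instead (log2 1.69 ± 0.43, adjusted p = 0.151).

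Markers of adipocyte progenitors and fibroblasts, the cells that make much of this matrix, were higher in 12 of 20 at an unadjusted p under 0.05 and lower in 0, with a median of 0.48 against 0.51 for obese minus lean. No marker passed in edgeR or limma-voom, and DESeq2 called 4 higher. Ly6a, which encodes the progenitor antigen Sca-1, was at 195 to 237 CPM in lean libraries and at 413, 260.0, 373 and 285 CPM after weight loss, with no overlap (log2 0.63 ± 0.13, adjusted p = 0.106). Pi16, a marker of fibroblast progenitors, was at 38.0 to 90.7 CPM and at 243, 115, 189.9 and 95.3 CPM (log2 1.15 ± 0.29, adjusted p = 0.151). The summed level of the list was 1437 to 2374 CPM in lean and 2013 to 3323 CPM in weight loss libraries. In whole tissue more cells of a type and more RNA per cell cannot be told apart. Part of the matrix list and of the progenitor list is shared (Mfap5, Dcn and Lum).

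Macrophage markers were higher in mean level but uneven between weight loss libraries. Of 18 general markers, 11 were higher and 0 lower at an unadjusted p under 0.05, with a median of 0.76 against 0.89 for obese minus lean. No marker passed in edgeR or limma-voom, DESeq2 called 2, and for 0 of the 18 did the groups separate (1.58% of all genes were higher without overlap). Adgre1, which encodes the macrophage antigen F4/80, was at 9.23, 9.01, 23.1, 8.51 and 3.33 CPM in lean fat and at 34.3, 14.4, 47.8 and 17.8 CPM after weight loss. Lean replicate 3 lay above weight loss replicates 2 and 4 (log2 1.42 ± 0.45, adjusted p = 0.255). Cd68, a lysosomal membrane protein of phagocytes, was at 12.1 to 26.3 CPM in lean fat and at 75.4, 18.6, 53.5 and 29.4 CPM after weight loss (log2 difference 1.36 ± 0.33, adjusted p = 0.139). The summed general markers were 559 to 1228 CPM in lean and 1649, 750.3, 1610.0 and 1248 CPM in weight loss replicates 1 to 4.

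Among 18 markers of lipid-associated macrophages, 11 were higher and 0 lower at an unadjusted p under 0.05, 4 of them without overlap, and the median was 0.55 against 0.74 for obese minus lean. Again 0 passed in edgeR and limma-voom, while DESeq2 called 8 higher. Gpnmb, a membrane glycoprotein of lipid-laden macrophages, was at 13.1, 12.5, 12.9, 7.51 and 13.5 CPM in lean libraries and at 182, 29.0, 153 and 23.2 CPM in weight loss libraries. Its libraries fell into a high pair, replicates 1 and 3, and a lower pair, replicates 2 and 4, which were still above every lean library (log2 3.02 ± 0.52, adjusted p = 0.0557). In obese fat Gpnmb was at 21.0 to 46.8 CPM, and weight loss minus obese was 1.73 ± 0.50 (adjusted p = 0.104). Trem2 was at 6.17 to 13.9 CPM in lean fat and at 36.9, 10.4, 35.8 and 16.1 CPM after weight loss, with the same replicates high and replicate 2 inside the lean range (log2 1.28 ± 0.33, adjusted p = 0.151). Lgals3, which encodes galectin 3, was at 82.1 to 108 CPM in lean and at 250.3, 143, 267 and 118 CPM after weight loss (log2 difference 1.04 ± 0.21, adjusted p = 0.0864). The summed level of this list is dominated by Lpl, which adipocytes also express, and does not show these genes.

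The lysosome list shares members with the preceding one. Of 30 tested, 14 were higher and 0 lower at an unadjusted p under 0.05 and 5 were higher without overlap, with a median of 0.26 against 0.38 for obese minus lean (0 calls in edgeR and limma-voom, 5 higher in DESeq2). Ctss, cathepsin S, was at 11.1 to 28.2 CPM in lean fat and at 77.6, 34.9, 112 and 30.4 CPM after weight loss (log2 difference 1.79 ± 0.37, adjusted p = 0.106). Npc1, which moves cholesterol out of lysosomes, was higher without overlap by 0.58 ± 0.18 (adjusted p = 0.236), and its obese minus lean value was 0.10. Of 20 complement genes, 13 were higher and 1 lower at an unadjusted p under 0.05, with a median of 0.63 against 0.55 for obese minus lean (0 calls in edgeR and limma-voom, 4 higher in DESeq2). The complement list shares C1qa, C1qb and C1qc with the general macrophage markers and Cd55 with the progenitor markers. It also shares Cfd with the adipokine and adipocyte identity lists. C4b, a central complement component, was at 809 to 1450.0 CPM in lean fat and at 2646, 1581, 1754 and 1541 CPM after weight loss, with no overlap (log2 0.65 ± 0.18, adjusted p = 0.2).

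Of 30 chemokines and their receptors, 10 were higher and 2 lower at an unadjusted p under 0.05, with a median of 0.50 against 1.01 for obese minus lean (0 calls in edgeR and limma-voom, 6 higher in DESeq2). Ccl7, a monocyte attractant, was at 1.81 to 4.52 CPM in lean fat and at 11.2, 5.64, 13.0 and 4.97 CPM after weight loss, a narrow separation of the groups (log2 1.54 ± 0.36, adjusted p = 0.133). Ccl2, its neighbour on chromosome 11 and the best known monocyte attractant of obese fat, was at 2.5, 1.92, 3.57, 0.737 and 2.62 CPM and at 8.3, 4.32, 13.2 and 2.46 CPM. Only weight loss replicate 4 lay within the lean range of Ccl2 (log2 1.63 ± 0.45, adjusted p = 0.178). The inflammatory cytokine gene Tnf was low, with 0.678 to 1.7 CPM in lean and 0.395 to 1.54 CPM in weight loss libraries (log2 -0.23 ± 0.47, adjusted p = 0.887).

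**Figure D3:**
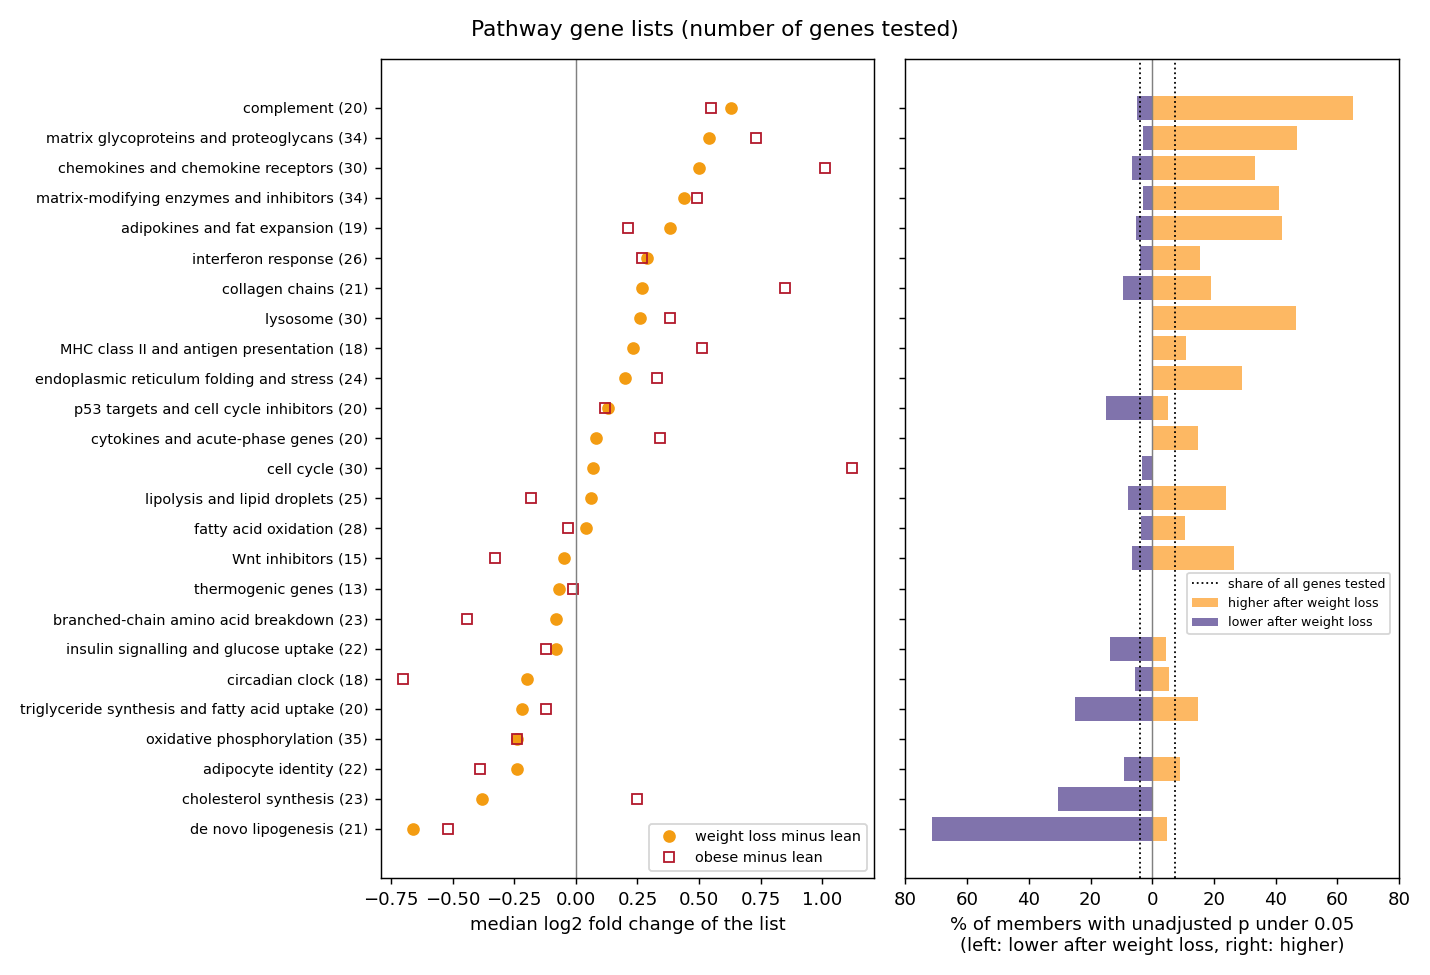
Left, median log2 fold change of each of 25 pathway lists (number of genes tested in brackets) for weight loss minus lean (filled circles) and obese minus lean (open squares). Right, percent of members with an unadjusted p under 0.05 for weight loss against lean, higher to the right and lower to the left, with dotted lines at the shares of all genes, 7.55% and 3.89%. De novo lipogenesis and cholesterol synthesis have the most negative medians, -0.66 and -0.38, and the cholesterol list has a positive median (0.25) in obese fat.

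On the lower side stood the making of fatty acids. Of 21 de novo lipogenesis genes, 18 had a negative difference, 15 were lower and 1 higher at an unadjusted p under 0.05, and the median was -0.66, against -0.52 for obese minus lean. None passed in edgeR or limma-voom, and DESeq2 called 5 lower. Fasn, the fatty acid synthase, was at 3648, 6728, 4044, 4971 and 2821 CPM in lean libraries and at 699, 2060.0, 566 and 2474 CPM in weight loss libraries. The groups did not overlap, and the lowest weight loss libraries, replicates 1 and 3, were the ones highest in Gpnmb and Thbs2 (log2 -1.61 ± 0.41, adjusted p = 0.151). Elovl6, which lengthens the product of Fasn, was at 92.4, 101, 129, 116 and 34.7 CPM in lean fat and at 9.2, 41.2, 18.0 and 32.9 CPM after weight loss (log2 difference -1.90 ± 0.42, adjusted p = 0.122). Lean replicate 5 was within the weight loss range for Elovl6. Without weight loss replicate 4 the adjusted p of Fasn was 0.0487 and that of Elovl6 was 0.065.

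The lipogenic transcription factor gene Srebf1 was at 354 to 569.5 CPM in lean and at 308, 308, 248 and 339.9 CPM in weight loss libraries (log2 -0.53 ± 0.22, adjusted p = 0.375). Acaca, acetyl-CoA carboxylase, averaged 717 CPM in lean, 319 CPM in weight loss and 272 CPM in obese fat (log2 -1.17 ± 0.30, adjusted p = 0.154). Scd1, the stearoyl-CoA desaturase and by far the most counted member, was the exception, at 8106 to 13777 CPM in lean and 17512, 18815, 13244 and 15014 CPM after weight loss (log2 difference 0.56 ± 0.16, adjusted p = 0.198). The summed level of the list overlapped between groups, at 17714 to 30150 CPM in lean and 17692 to 26436 CPM in weight loss libraries. Scd2, its relative, was not like it, with means of 229 CPM in lean, 144 CPM in weight loss and 510 CPM in obese fat.

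Cholesterol synthesis genes were low after weight loss beside both other groups. Of 23 tested, 20 had a negative difference from lean, 7 were lower and 0 higher at an unadjusted p under 0.05, while 4 were lower without overlap and 1, Hsd17b7, was higher without overlap. The median was -0.38, against 0.25 for obese minus lean and -0.65 for weight loss minus obese, and edgeR and limma-voom called 0 against lean and DESeq2 2 lower. The mevalonate pathway kinases Mvk and Pmvk were lower without overlap, by -0.59 ± 0.19 (adjusted p = 0.256) and -0.65 ± 0.22 (adjusted p = 0.279). Mvk was at 40.4, 54.5, 48.3, 43.6 and 47.7 CPM in lean libraries and at 28.3, 33.5, 26.2 and 36.3 CPM after weight loss. Hmgcs1, an early enzyme of the pathway, had a positive difference of 0.41 ± 0.21 (adjusted p = 0.472).

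Genes for burning and releasing fat were mixed. Of 28 fatty acid oxidation genes, 3 were higher and 1 lower at an unadjusted p under 0.05. Their median was 0.04 against -0.03 for obese minus lean (0 calls in edgeR and limma-voom, 1 higher in DESeq2). Of 25 lipolysis and lipid droplet genes 6 were higher and 2 lower at an unadjusted p under 0.05, with a median of 0.06 against -0.18 for obese minus lean (0 calls in edgeR and limma-voom, 4 higher in DESeq2). Ces1d, a triglyceride hydrolase of adipocytes, was at 1034, 1436, 1383, 1134 and 1157 CPM in lean libraries and at 1828, 1527, 1971 and 1828 CPM after weight loss. It did not overlap with lean (log2 0.54 ± 0.13, adjusted p = 0.133) and was higher than in obese fat by 0.73 ± 0.13 (adjusted p = 0.00805). Lpin1, a phosphatidate phosphatase of triglyceride synthesis, was at 571 to 769.8 CPM in lean, 778 to 868 CPM in weight loss and 504 to 582 CPM in obese libraries, and rose against obese fat (log2 0.58, adjusted p = 0.00797) while its difference from lean was 0.30 ± 0.10 (adjusted p = 0.276). Most genes of triglyceride synthesis and fatty acid uptake, the list that holds Lpin1, went the other way from lean. Of 20 tested, 15 had a negative difference, with a median of -0.22 against -0.12 for obese minus lean. At an unadjusted p under 0.05, 3 were higher and 5 lower. The main lipases Pnpla2 and Lipe had differences of -0.26 and -0.27 at unadjusted p above 0.05. Plin2, which coats small droplets in many cell types, was at 193 to 279 CPM in lean and at 496, 274, 446 and 355 CPM in weight loss libraries (log2 0.68 ± 0.17, adjusted p = 0.139).

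Of 19 adipokines and genes of fat expansion, 8 were higher and 1 lower at an unadjusted p under 0.05, with a median of 0.38 against 0.21 for obese minus lean. EdgeR called 1 higher, DESeq2 5 higher and limma-voom 0. Lep, the satiety hormone leptin, was at 614, 728, 394, 658 and 609 CPM in lean and at 649, 793, 584 and 498 CPM after weight loss (log2 0.07 ± 0.17). These ranges overlapped, although weight loss replicate 2 was above every lean library. Obese libraries were at 1404 to 1785 CPM, and weight loss minus obese was -1.32 ± 0.17 (adjusted p = 0.00133). Adipoq, adiponectin, was at 1559 to 2094 CPM in lean and at 2409, 2177, 2682 and 2629 CPM after weight loss. The groups did not overlap (log2 0.43 ± 0.13, adjusted p = 0.227). Most adipocyte identity genes, a list that holds Adipoq, went the other way. Of 22 tested, 16 had a negative difference, with a median of -0.24 against -0.39 for obese minus lean. At an unadjusted p under 0.05, 2 were higher and 2 lower. Mest, a marker of fat pad expansion, was at 17.2 to 84.6 CPM in lean, 129, 128, 153 and 60.8 CPM in weight loss and 438 to 626 CPM in obese libraries. It had fallen from obese fat (log2 -2.15 ± 0.37, adjusted p = 0.00797), and its difference from lean was 1.16 ± 0.35 (adjusted p = 0.234). Crispld2, the secreted protein named in the title of the series, was at 46.5 to 54.8 CPM in lean and at 74.4, 66.0, 78.1 and 60.8 CPM after weight loss, without overlap (log2 0.46 ± 0.11, adjusted p = 0.139).

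Of 22 genes of insulin signalling and glucose uptake, 1 was higher and 3 lower at an unadjusted p under 0.05 (0 calls in edgeR and limma-voom, 1 lower in DESeq2). Pik3r1, the regulatory subunit of PI3 kinase, was at 224, 524, 452, 308 and 315 CPM in lean and at 182, 181, 203 and 152 CPM in weight loss libraries, without overlap (log2 -1.02 ± 0.23, adjusted p = 0.126). Obese libraries were at 103 to 177 CPM (obese minus lean -1.50 ± 0.22). Slc2a4, the insulin-driven glucose transporter GLUT4, averaged 340 CPM in lean, 264 CPM in weight loss and 204 CPM in obese fat (weight loss minus lean -0.36 ± 0.14, adjusted p = 0.344).

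Cell cycle genes stood near lean. Of 30 tested, 0 were higher and 1 lower at an unadjusted p under 0.05, and the median was 0.07 against 1.12 for obese minus lean. EdgeR, DESeq2 and limma-voom called 0 against lean. Mki67, the proliferation antigen, was at 11.7, 10.5, 10.8, 9.72 and 7.45 CPM in lean and at 14.6, 9.76, 11.4 and 8.28 CPM after weight loss. The groups overlapped, although weight loss replicate 1 was above every lean library. Obese libraries were at 23.7 to 43.0 CPM (weight loss minus obese -1.52 ± 0.21, adjusted p = 0.00173). The median of the list lay between -0.08 and 0.09 over the 28 alternative settings, so it has no settled sign.

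Libraries of the weight loss group did not differ from lean to the same degree. Among the 1148 genes higher at an unadjusted p under 0.05, replicate 4 was the lowest weight loss library for 604 (52.6%) and replicate 2 for 381 (33.2%), while replicate 1 was the highest for 526 (45.8%) and replicate 3 for 448 (39%). Among the 591 lower genes replicate 4 was the highest, and so nearest to lean, for 327 (55.3%). These genes were picked by the same values, so the shares are a description of the libraries. Replicate 4 also had the largest sums of smooth muscle markers (2619 CPM against 1041 to 1169), skeletal muscle markers (236.7 against 48.45 to 78.84 CPM) and epididymis markers (103 against 4.29 to 9.25 CPM) of the weight loss libraries. The part of the muscle markers in the result was not tested. With the mean log2 CPM of the epididymis markers as a covariate 2 genes were called. Without the 4 libraries with the largest epididymis sums 0 were. The mean log2 CPM does not follow the sum: it was -2.75 in lean replicate 4 and -1.56 in lean replicate 2. The general macrophage markers of weight loss replicate 4, at 1248 CPM, were above those of weight loss replicate 2.

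**Figure D4:**
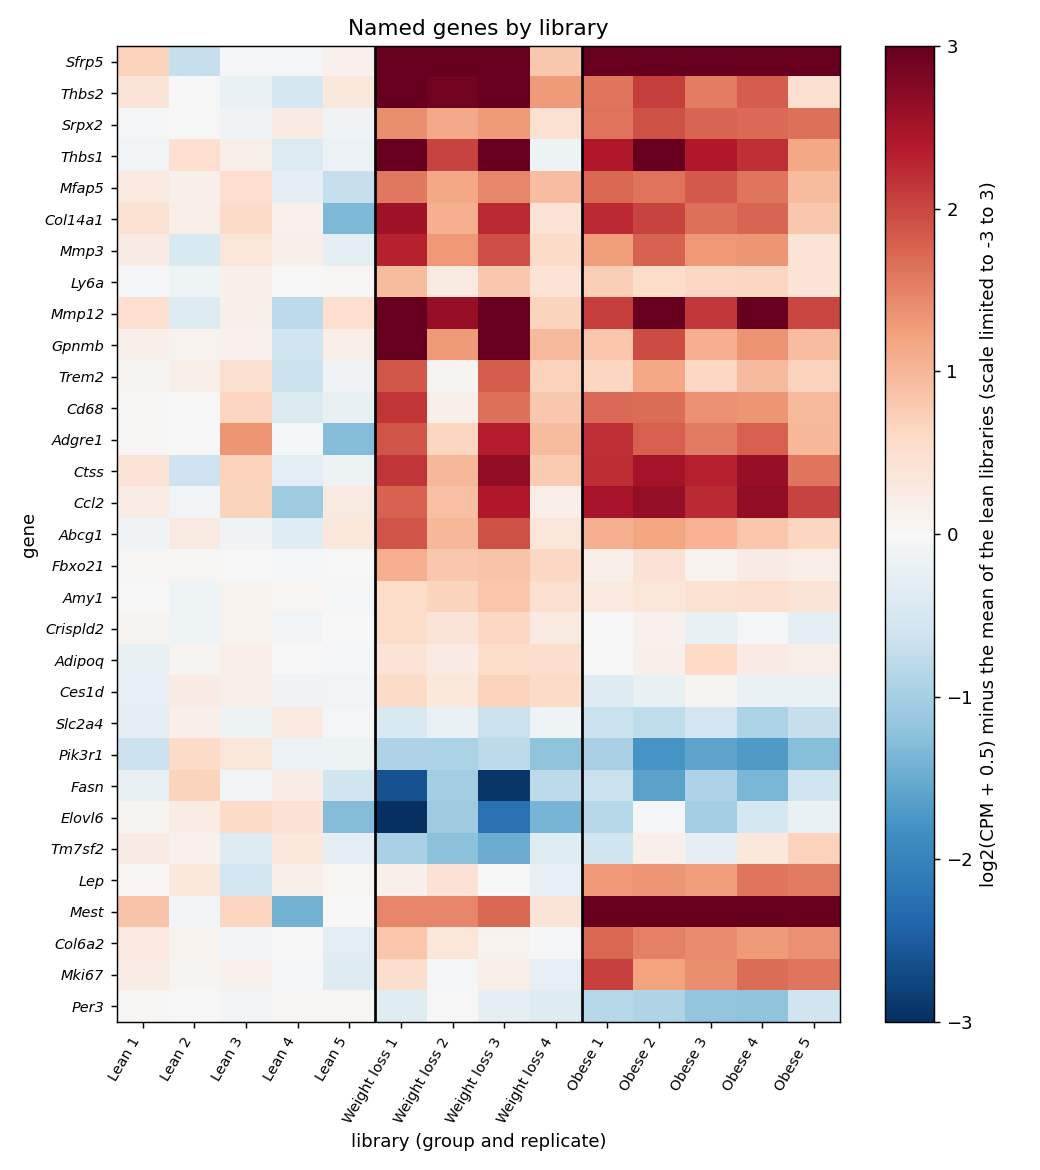
Log2(CPM + 0.5) of named genes in each of the 14 libraries, minus the mean of the lean libraries (colour, limited to -3 to 3). Most matrix and macrophage rows are deeper red in weight loss replicates 1 and 3 than in replicates 2 and 4, for example Thbs1 at 273 and 341 against 87.3 and 18.9 CPM.

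The fit without weight loss replicate 4 was picked because omitting that library gives most calls, so what follows is a description and not a test. Without weight loss replicate 4, 15423 genes were tested and 130 passed (0.843%), 115 higher (0.746%) and 15 lower (0.0973%), with all 5 genes named above among them. Fgf13, an intracellular relative of the fibroblast growth factors, then had the smallest adjusted p, 2.68e-05. It was at 1.99 to 3.57 CPM in lean, 15.1, 13.7, 20.6 and 2.46 CPM in weight loss and 28.4 to 37.2 CPM in obese libraries, so that replicate 4 stood at the lean level and the other libraries near the middle. Abcg1, which exports cholesterol from macrophages, was at 29.9 to 48.0 CPM in lean and at 145, 77.8, 146 and 49.5 CPM after weight loss (log2 difference 1.61 and adjusted p = 0.00366 without replicate 4, 1.42 ± 0.26 and 0.0761 with it). Lctl, Prr32 and Itih5 also passed in that fit (adjusted p = 0.0037, 0.00366 and 0.00875). Of the lists, the glycoproteins had 8 of 34 higher, lipid-associated macrophages 4 of 18, progenitors 4 of 20, chemokines 3 of 30 and general macrophages 0 of 18. Adipokines, Wnt inhibitors, matrix-modifying enzymes and the lysosome had 2 higher each. Collagen chains, complement, MHC class II and fatty acid oxidation had 1 higher each. Lipogenesis, cholesterol synthesis and p53 targets had 1 lower each, and the other pathway lists had 0.

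For the position of weight loss fat relative to obesity, the 1739 genes at an unadjusted p under 0.05 (11.4%) were sorted by mean level. Of the 1148 higher genes, 532 had a weight loss mean between the lean and obese means and 616 a mean beyond that of obese fat. Of the 591 lower genes, 214 lay between and 377 beyond. Only 40 of the 1148 and 20 of the 591 differed between weight loss and obese fat at an adjusted p under 0.05, beside 246 of all 15208 genes (1.62%). Most of these places therefore rest on differences of means from obese fat that did not pass. The 591 lower genes include 14 epididymis markers, which come from neighbouring tissue. Since the genes were picked on the weight loss level itself, the sorting is a description and not a test.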

How the data were processed

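Poly(A) RNA-seq of perigonadal fat was analysed from 1 table of expected counts that the authors deposited, with 35794 Entrez gene IDs and 15 libraries. The submitters' processing notes name the build mm10. Neither aligner nor counter is named: not given in the sources used here. Of all values 34.8% were not whole, and they were rounded to whole numbers. Symbols came from RefSeq for 32919 IDs and GENCODE for 24, and 2851 IDs had none. Libraries under 1000000 counts were left out, which removed weight loss replicate 5. Library totals of the 14 others ran from 13924770 to 33807887. Replicates are separate samples per the labels, and p-values measure only the spread between them.

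Lean, obese and weight loss libraries were fitted in 1 model with edgeR 4.0.16 in R 4.3.3 (filterByExpr, TMM, quasi-likelihood test, two-sided, Benjamini-Hochberg over 15208 genes). The standard error is the log2 fold change divided by the square root of F. DESeq2 1.42.0 and limma 3.58.1 were alternatives, and the fit was tested on simulated data. Tables and plots used Python 3.11.15, pandas 2.3.3 and matplotlib 3.10.9. Genes were named as the called genes, the 12 next by p with an average log2 CPM of at least 2, the top 2 of every list by p, a set list of 13, the most abundant marker of each cell type, and the 10 smallest p without weight loss replicate 4. List members named outside this rule were chosen after their values were seen. The members and the 25 pathway and 17 cell type lists were chosen with earlier results of these data known. The 28 alternatives covered scaling, filters, tests, the replicate number as a block, an epididymis covariate and omitted libraries.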

Additional observations from a re-analysis of the deposited data

Results flagged for a closer look

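Of 168 sets of values of 4 or 5 libraries, 10 held a library far from the others, and chance alone gives about 1 set in 20. Srpx2 was at 23.73 CPM in lean replicate 4 and at 18.44 to 19.51 CPM in the other lean libraries. Gpnmb was at 7.507 CPM in that library against 12.49 to 13.48 CPM in the others. Lean replicate 5 was low in Col14a1 (7.306 against 21.38 to 29.42 CPM) and in Elovl6 (34.68 against 92.36 to 129.4 CPM). Per3, a clock gene, was at 90.84 CPM in lean replicate 3 and at 97.27 to 99.53 CPM in the other lean libraries. C1qa, a complement chain made by macrophages, was at 109.6 CPM in weight loss replicate 2 against 252.3 to 284.7 CPM in the other weight loss libraries.

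In weight loss replicate 4 the summed markers of lipid-associated macrophages were 28179 CPM against 24004 to 24566 CPM, a sum made mostly of Lpl, and those of smooth muscle and pericytes were 2619 CPM against 1041 to 1169 CPM. Obese replicate 5 was low in Mfap5 (112.3 against 179.2 to 210.5 CPM), and mesothelium markers summed to 439 CPM in obese replicate 1 against 626.7 to 683.3 CPM in the other obese libraries.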

How the results depend on the processing

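The number of genes called between weight loss and lean fat was 5, all higher. It was 261 (203 higher) with DESeq2's Wald test, 1 with limma-voom, 3 with limma-voom and sample quality weights, 0 with only lean and weight loss libraries, 2 with the epididymis level as a covariate, 0 without the 4 libraries richest in epididymis markers, and 0 at an adjusted p under 0.01. Leaving out 1 library at a time gave 0 to 130 calls, 0 to 115 of them higher, and 984 to 2729 genes at an unadjusted p under 0.05 (1739 with all libraries). The other scalings and filters, the robust fit and the fit with bias-adjusted deviances gave 4 to 6. All of these were higher except in the fit with bias-adjusted deviances, which called 5 higher and 1 lower. No scaling moved the median of all genes by more than 0.1. The signs of small differences turned for Tnf (-0.55 to 0.03 over the fits that leave out a library, positive without weight loss replicate 1), Lep (-0.06 to 0.14, with -0.05 without lean replicate 3 and -0.06 without weight loss replicate 2) and Mki67 (-0.03 to 0.21, negative without weight loss replicate 1). The cause of these shifts was not tested.

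With the replicate number as a block 2 genes passed (S100a4 and Mfap5), and none of the 5. Deviations of same-numbered lean and weight loss libraries correlated at -0.423, -0.214, 0.327 and 0.289. The signs were mixed, and so few values cannot tell whether the replicate numbers pair the samples. The median standard error over all genes was 0.218 on the log2 scale.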

Other observations

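Genes of the circadian clock were described by their place among the groups. Of 18 tested, 1 was higher and 1 lower than lean at an unadjusted p under 0.05, and edgeR, DESeq2 and limma-voom called 0. Against obese fat 7 of the 18 were higher at an adjusted p under 0.05, where 1.62% of all genes differed in either direction. Per3 averaged 97.0 CPM in lean, 81.4 CPM in weight loss and 50.5 CPM in obese libraries. Ciart, a repressor of the clock, was at 14.7 to 28.4 CPM in lean, 10.5 to 23.3 CPM in weight loss and 4.71 to 8.25 CPM in obese libraries. In both genes the weight loss mean lay between the others. Per2, another period gene, was instead at 45.6 to 69.3 CPM in lean and at 76.4, 70.0, 67.6 and 52.5 CPM after weight loss, above the 37.1 to 47.7 CPM of obese libraries.

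Chaperones of the endoplasmic reticulum were higher than lean in 7 of 24 genes at an unadjusted p under 0.05 and lower in 0, with 0 calls in edgeR and limma-voom and 1 in DESeq2. Hspa5, the main chaperone of that compartment, was at 320.0 to 493 CPM in lean and at 625.5, 485, 592 and 557 CPM after weight loss (log2 difference 0.41 ± 0.15, adjusted p = 0.327). Pdk4, which shifts fuel use from glucose to fatty acids, was at 12.3 to 30.3 CPM in lean and at 61.4, 48.3, 102.5 and 26.3 CPM after weight loss (log2 difference 1.38 ± 0.32, adjusted p = 0.131). Of 35 oxidative phosphorylation genes 29 had a negative difference from lean with a median of -0.24, the same median as obese minus lean, and 0 reached an unadjusted p under 0.05. Branched-chain amino acid breakdown also had 0 of 23 at that level against lean, while Ppm1k, the phosphatase that switches the pathway on, was higher than in obese fat (log2 0.74, adjusted p = 0.0184).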
